A study of Mus musculus with 86 samples.

Results

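The RNAs described here are those of 7 mouse genes, Rab13, Net1, Kif1c, Trak2, Ddr2, Dynll2 and Cyb5r3, out of 53664 genes with a transcript in the mouse files. They were chosen by name, as RNAs known to collect at cell protrusions through a pathway that needs the APC protein, a rule that uses no measured value, although earlier results of these data were known when the list was made. All 7 passed the filter on low counts in every experiment. The question was whether their place in the cell and their level depended on TDP-43, an RNA-binding protein lost from the nucleus in amyotrophic lateral sclerosis.

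RNA was sequenced from soma and neurite fractions of mouse neuronal lines grown on porous membranes, through which neurites extend while cell bodies stay above. There were 3 experiments of 12 libraries each, with 4 groups of 3 (soma or neurite, control or altered). The first experiments used CAD cells (a catecholaminergic line of the central nervous system) and N2A cells (a neuroblastoma line). In these lines the endogenous Tardbp alleles had been inactivated in single-cell clones. The clones carried a transgene for HA-tagged TDP-43, switched off by doxycycline. The wild-type groups were these cells without doxycycline, and the knockout groups had 2 ug/mL of it for 48 h, so an effect of doxycycline and one of TDP-43 loss cannot be told apart. In the third experiment, CAD cells expressed an integrated, doxycycline-inducible HA-tagged transgene of wild-type or Q331K TDP-43, a mutant linked to amyotrophic lateral sclerosis, and endogenous TDP-43 was lowered by its autoregulation. Per the paper, transgene expression was induced with doxycycline before fractionation, for longer than the knockout groups were treated. Nothing in the labels says that the numbered libraries came from separate cultures, so p-values may measure technical spread only.

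APC-dependent RNAs are anchored at the tips of protrusions, where APC holds them on stable microtubules. Their transport relies on GA-rich stretches in their 3′ UTRs and on kinesin motors, among them KIF1C, whose own RNA belongs to the group. TDP-43 binds UG-rich RNA and takes part in its splicing, stability and transport.

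Estimated counts per library ran from 25009904 to 32895542 in CAD, from 22726534 to 31911030 in N2A and from 9783050 to 15870647 in the transgene experiment. Counts assigned to Tardbp checked the labels: they fell in knockout soma by 2.52 ± 0.08 (SE) on the log2 scale in CAD and by 1.78 ± 0.08 in N2A (edgeR adjusted p = 3.35e-12 and 2.58e-09). The endogenous alleles were inactivated in wild-type and knockout groups alike. Doxycycline switched off the transgene, which per the paper had the TDP-43 coding sequence with silent mutations and the TDP-43 3′ UTR. Transgene and endogenous RNA were not told apart in these counts. Neuronal markers were present in every group, 6 of 8 at a mean of at least 1 TPM, while the light neurofilament gene Nefl was at 0 in all libraries of 5 of the 12 groups. The catecholaminergic markers summed to 12.7 to 23.4 TPM in wild-type CAD soma and 2.79 to 4.42 TPM in wild-type N2A soma. Summed markers of astrocytes, microglia and oligodendrocytes stayed at or below 3.13 TPM in every library, and those of endothelium at or below 6.59 TPM. Fibroblast markers summed to at most 3.17 TPM in CAD and N2A, but to 19.8 to 27.1 TPM in soma and 7.43 to 10.3 TPM in neurites of the transgene experiment. The nuclear RNAs Malat1 and Neat1 together reached 25.2 to 39.2 TPM in wild-type CAD neurites against 122 to 382 TPM in the soma. Relative to the bulk of genes, the scale used below, their depletion was smaller. Malat1 and Neat1 had 0.547 and 0.410 of their soma level in those neurites, and 84.8% and 91.0% of tested genes had a higher ratio.

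The sequences that the known transport element concerns are shown first, from GENCODE transcripts of the mouse build mm10. For each 3′ UTR (the longest annotated for the gene), the 30 bases with the most matches to GAAG with a purine before it and a pair of purines after it are given on the transcript strand, with the matches in capitals.
Rab13, chr3:90225776-90225805, plus strand: AGAAGGGatttgAGAAGAGgaaaGGAAGAA
Net1, chr13:3883035-3883064, minus strand: agGGAAGGGAAGGGAAGAGAAGAGAAGAGt
Dynll2, chr11:87980477-87980506, minus strand: ttggggtAGAAGGGtgGGAAGGGgcaggat
Cyb5r3, chr15:83157604-83157633, minus strand: ggcaAGAAGGAgtttcagtgGGAAGGAgca
Trak2, chr1:58903387-58903416, minus strand: aagggatgttgcAGAAGGActgtgaatgtg

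Net1 held 5 overlapping matches in its window and Rab13 held 3, and windows that dense were found in 0.565% and 2.76% of the 13617 3′ UTRs of genes tested in CAD. Kif1c, Ddr2, Dynll2 and Cyb5r3 held 2 at best and Trak2 held 1, where 15.1% of all 3′ UTRs had a window with at least 2 matches and 69.8% had at least 1. Per kb, the match density was 6.23 in Rab13, 3.90 in Net1, 2.70 in Cyb5r3, 2.29 in Trak2, 2.10 in Dynll2, 1.44 in Ddr2 and 0.972 in Kif1c, against a median of 0.953 over all 3′ UTRs. For Cyb5r3 the printed window and this density belong to a transcript under 5% of its TPM. In the transcripts of highest TPM the density was 13.0 in Rab13, 3.79 in Cyb5r3 and 1.99 in Kif1c, against a median of 0.765. The longest unbroken stretch of purines in that Cyb5r3 3′ UTR was 106 bases, a length reached by 0.338% of 3′ UTRs. A match to these letters is a description and not evidence of binding.

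The same 3′ UTRs were searched for the TDP-43 motifs GTGTG, the same repeat in its other phase TGTGT, and a further known variant GTATG (transcript strand, overlapping matches each counted, so that a TG repeat counts many times). Some of the densest windows are printed because they set the members apart from each other, with the Kank2 window beside them for a later comparison.
Net1, chr13:3883286-3883315, minus strand: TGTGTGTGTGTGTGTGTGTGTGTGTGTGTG
Ddr2, chr1:169974962-169974991, minus strand: ttacatgaaTGTGTGTGTGTGgctggaagg
Cyb5r3, chr15:83157562-83157591, minus strand: ggccaagccaTGTGTGTGTGagtcagtgga
Trak2, chr1:58902684-58902713, minus strand: tgcaaacacgatTGTGTGTttctccgtttt
Rab13, chr3:90226241-90226270, plus strand: acagcagcacttaGTATGgtttatccaagg
Kank2, chr9:21767832-21767861, minus strand: tagttttatgttTGTGTGTttgtttttaat

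Net1 carried a long TG repeat, with 57 matches in 2052 bases (27.8 per kb), a density reached by 1.44% of 3′ UTRs. Rab13 had a single match in 802 bases, and 86.5% of 3′ UTRs were as dense or denser. The other members lay between, at 12.1 per kb in Dynll2, 8.09 in Cyb5r3, 5.23 in Ddr2, 5.19 in Kif1c and 3.93 in Trak2, around the median of 4.56 per kb. In the 3′ UTR of the transcript with the highest TPM, Rab13 held no match and Cyb5r3 held 1, since its window printed here belongs to the longer 3′ UTR of a transcript under 5% of its TPM. Above the median density were 5 of 7 members for the TDP-43 motifs and 7 of 7 for GAAG between purines, and 4 of 7 and 7 of 7 in the transcripts of highest TPM.

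**Figure D1:**
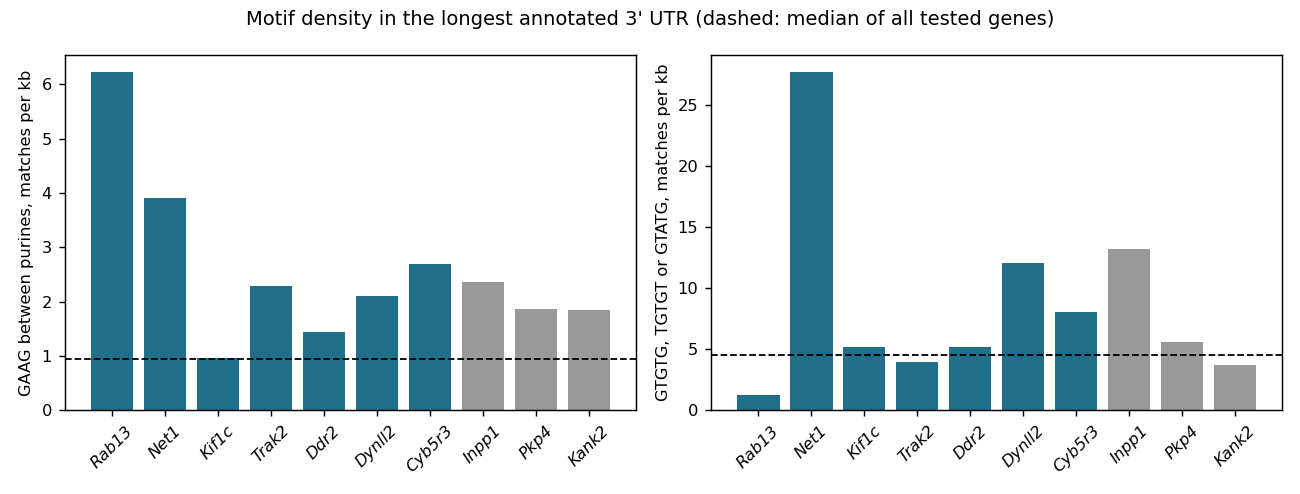
Matches per kb of the longest annotated 3′ UTR for GAAG between purines (left) and for the 3 TDP-43 motifs together (right), members in blue and other protrusion RNAs in grey, the dashed line marking the median of 13617 3′ UTRs. All 7 members reached or passed the median for GAAG between purines, Kif1c by little, while for the TDP-43 motifs Net1 stood at 27.8 per kb and Rab13 at 1.25.

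The members covered a wide range of levels. TPM is per transcript length, so it was used for the order of genes within a fraction. In wild-type CAD soma, Cyb5r3, a cytochrome b5 reductase, had the highest mean at 107 ± 21.0 TPM (SD, n = 3), followed by the dynein light chain gene Dynll2 at 62.9 ± 12.02 and the collagen receptor gene Ddr2 at 55.6 ± 8.75. The replicates of Dynll2 and Ddr2 overlapped. The mitochondrial transport adaptor gene Trak2 had 15.6 ± 0.855 TPM, the small GTPase gene Rab13 had 9.12 ± 1.24, the kinesin gene Kif1c had 5.58 ± 0.702 and Net1, which encodes an exchange factor for RhoA, had 4.01 ± 1.04; each of these was apart from the next in all replicates. In wild-type N2A soma Cyb5r3 (173 ± 27.3 TPM) and Ddr2 (148 ± 3.09 TPM) led with overlapping replicates, and Net1 was again lowest (1.75 ± 0.302 TPM).

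In neurites the order changed. Cyb5r3 remained first in CAD, at 481 ± 98.3 TPM, and Trak2 moved up in the order with 116 ± 31.0 TPM, overlapping Dynll2 at 149 ± 31.0 TPM. Ddr2 had 34.7 ± 7.27 TPM there and Kif1c, at 4.37 ± 0.972 TPM, was lowest. In N2A neurites Cyb5r3 (251 ± 87.3 TPM) stood apart from the rest, and Trak2, Rab13, Kif1c and Net1 lay between 2.29 and 7.02 TPM on average.

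The neurite/soma ratio was taken as LR, the log2 of neurite over soma level in CPM (read counts per library size, scaled by the trimmed mean of M values), so that LR is relative to the bulk of genes. Control LR differed from 0 for all 7 members in all 3 experiments (edgeR quasi-likelihood test, FDR 0.01). In CAD wild-type cells all 7 were neurite-enriched, and 23.7% of the 17343 tested genes passed in that direction. In N2A 6 of 7 were neurite-enriched and Ddr2 was soma-enriched, where 32.5% and 26.6% of 17912 genes passed in these directions. In CAD with the wild-type transgene all 7 were neurite-enriched, against 14.9% of 13940 genes.

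Trak2 was the most neurite-enriched member in CAD, with LR values of 4.67, 4.98 and 4.53 in the wild-type replicates. Its mean of 4.73 ± 0.229 (SD, n = 3) corresponds to 26.5 times more in neurites, and 0.0519% of tested genes had a higher mean. Net1 followed with 4.42, 4.71 and 4.10, and Rab13 with 4.18, 4.48 and 4.03. Trak2 overlapped Net1 and Net1 overlapped Rab13, while every Trak2 value lay above every Rab13 value. Cyb5r3 had 3.99, 4.12 and 3.63, overlapping Rab13. Dynll2 was set apart from both neighbours at 2.999, 3.12 and 2.70. Kif1c (1.39, 1.79 and 1.22) and Ddr2 (1.32, 1.28 and 0.918) formed a lower pair whose replicates overlapped, at 2.77 and 2.26 times more in neurites.

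In N2A the same RNAs were graded over a narrower range. Net1 had wild-type LR values of 2.32, 2.52 and 1.93, Rab13 had 2.40, 2.20 and 1.69 and Cyb5r3 had 2.14, 2.21 and 1.85. Trak2 had 1.77, 1.99 and 1.70 and Dynll2 1.66, 1.73 and 1.44. Each of these 5 overlapped the next in order. Kif1c was apart at 0.745, 0.873 and 0.571, and Ddr2 was below 0 in all replicates, at -0.608, -0.471 and -0.585 (fitted LR -0.55 ± 0.09 SE, edgeR adjusted p = 7.70e-05). All 7 members had higher LR in every CAD wild-type replicate than in any N2A wild-type replicate, as did 18% of the 16200 genes tested in both lines. The difference in control LR between the lines was not tested, and the lines were scaled separately.

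The transgene experiment, in CAD cells prepared separately and treated with doxycycline, unlike the wild-type CAD cells above, gave a like order. Trak2 had LR values of 4.47, 5.40 and 4.70 with the wild-type transgene and Net1 had 4.004, 4.76 and 4.31. Rab13 (3.02, 3.802 and 3.46) and Cyb5r3 (2.64, 3.18 and 2.78) overlapped each other. Dynll2 (1.88, 2.60 and 1.98) overlapped Kif1c (1.58, 2.45 and 2.10), and Ddr2 was lowest at 0.867, 1.498 and 1.45.

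**Figure D2:**
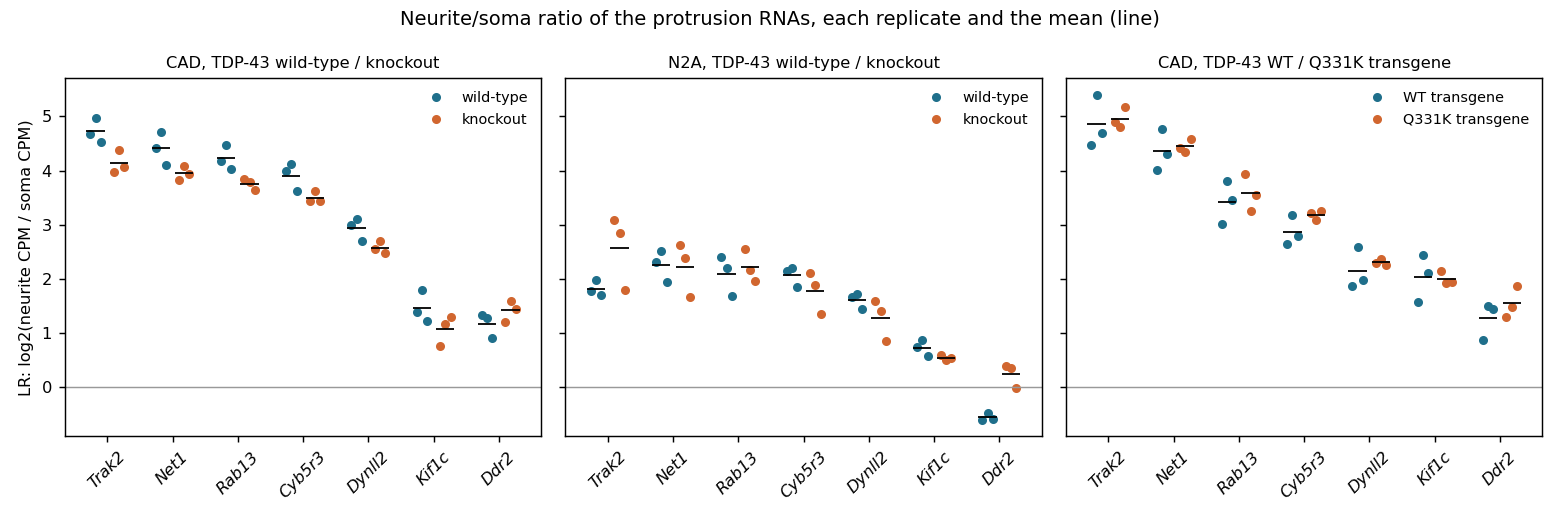
LR (log2 of neurite over soma CPM) of each member in each numbered replicate (points) with the group mean (line), for control (blue) and altered (orange) cells in the 3 experiments. Trak2 in CAD lay at 4.53 to 4.98 in wild-type and lower, at 3.98 to 4.38, in knockout cells, and Ddr2 in N2A lay below 0 in all wild-type replicates.

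LR depends on how libraries are scaled, and here the scale decided the sign for the lower members. Neurite TPM was dominated by a few abundant RNAs, the 20 most abundant genes taking 58.9% to 75.6% of TPM in wild-type CAD neurites and 25.2% to 48.0% in soma. The median tested gene had a neurite/soma TPM ratio of -1.77 on the log2 scale in CAD wild-type cells, -1.66 in N2A and -0.9998 with the wild-type transgene. As plain TPM ratios, control LR was -0.37 for Kif1c and -0.69 for Ddr2 in CAD. It was -0.92 for Kif1c and -0.20 for Trak2 in N2A, and -0.03 for Ddr2 with the wild-type transgene. After subtraction of the median gene, these became 1.40 and 1.08, 0.74 and 1.47, and 0.97. The enrichment of Trak2, Net1, Rab13, Cyb5r3 and Dynll2 in CAD kept its sign on the plain TPM scale, at 2.85, 2.65, 2.45, 2.17 and 1.24.

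The closest family members of the 7 genes served as a comparison, 12 paralogues in all. In CAD wild-type cells the member had the higher LR in every numbered replicate in 10 of 12 pairs, in N2A in 11 of 12 and with the wild-type transgene in 10 of 12. Rab13, Kif1c and Cyb5r3 each entered several pairs. Most genes, related or not, would lie below the most enriched members. In CAD, 0.0519% of tested genes had a higher mean LR than Trak2 and 0.398% had a higher one than Dynll2. How often unrelated genes lay below the members was not tested. Trak2 and Trak1, both adaptors between mitochondria and motors, differed by 3.39 ± 0.0222 (SD, n = 3) in CAD, where Trak1 had an LR of 1.34. Rab13 exceeded Rab8a, Rab8b and Rab10, the related trafficking GTPases, by 3.88 ± 0.187, 4.25 ± 0.325 and 3.96 ± 0.217. Net1 exceeded the related exchange factor gene Arhgef3 by 4.24 ± 0.272. Ddr2 exceeded Ddr1 by 1.60 ± 0.0962 in CAD and by 0.548 ± 0.107 in N2A, where both were below 0.

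Kif1c was the exception among the motors. In CAD its LR was below that of Kif1a, a neuronal motor for synaptic vesicle precursors, by 3.03 ± 0.0978 (SD, n = 3), and below that of Kif1b by 1.30 ± 0.141. In N2A the order was the other way, with Kif1c 0.684 ± 0.256 above Kif1a and 1.68 ± 0.248 above Kif1b. Dynll2 exceeded Dynll1 by 2.05 ± 0.153 in CAD, whereas in N2A both were neurite-enriched and their difference of -0.04 ± 0.179 was within its spread. Cyb5r3 exceeded Cyb5r1, Cyb5r2 and Cyb5r4 in every replicate of the 3 experiments, by 4.10 ± 0.102, 3.07 ± 0.522 and 3.29 ± 0.338 in CAD.

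**Figure D3:**
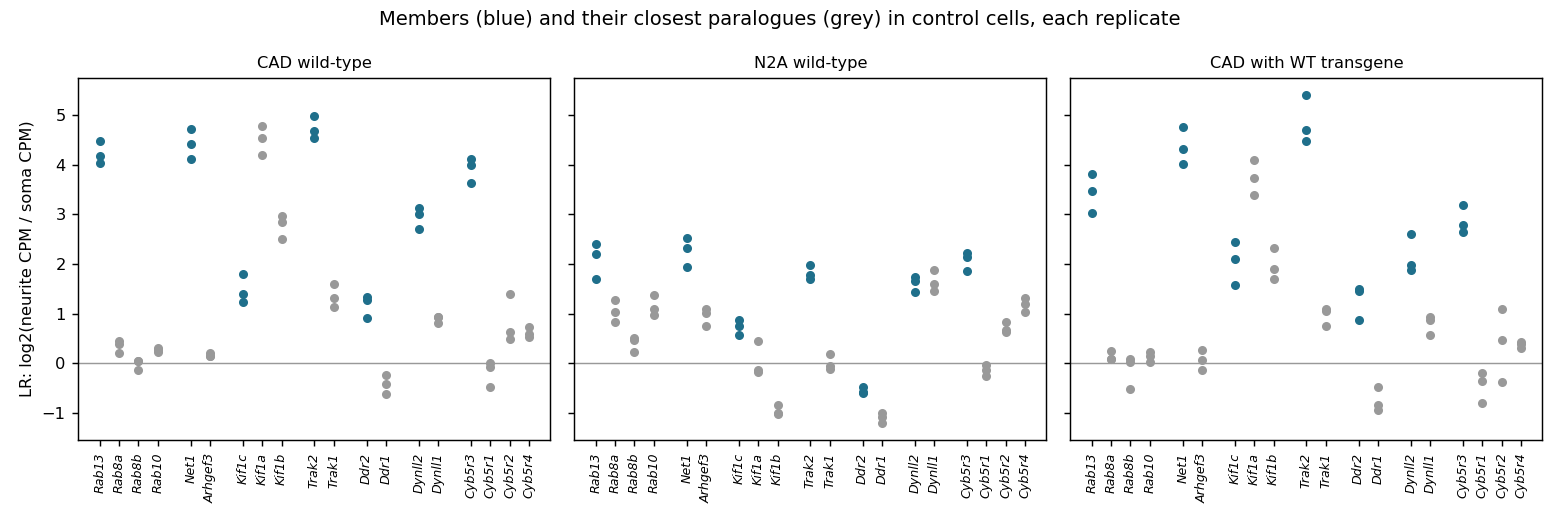
LR (log2 of neurite over soma CPM) in control cells for each member (blue) and its paralogues (grey), 1 point for each numbered replicate. Rab13, Net1, Trak2, Ddr2 and Cyb5r3 lay above all their paralogues in every numbered replicate, while Kif1c lay below Kif1a and Kif1b in CAD wild-type cells.

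Transcript shares were estimated by salmon, which splits reads of shared exons, and are given without a test. Dynll2, Trak2 and Rab13 were each carried mainly by 1 transcript, with mean shares of gene TPM in CAD of 93.7% for Dynll2-201, 91.1% for Trak2-201 and 92.8% for Rab13-201. Net1 in CAD was split mainly between Net1-202, which ends in the 3′ UTR of 2052 bases with the TG repeat, and Net1-201, whose 3′ UTR has 737 bases. The Net1-202 share in CAD was 62.4% ± 5.37 (SD, n = 3) in wild-type soma and 43.6% ± 3.97 in knockout soma, and 60.6% ± 1.62 and 56.7% ± 2.996 in neurites. In N2A soma it was 23.8% ± 10.1 and 38.6% ± 6.45, with a further transcript, Net1-207, at 19.2% ± 4.77 and 15.5% ± 4.68. The Net1-202 values overlapped within their SDs there, and Net1 was low in wild-type N2A soma (1.75 ± 0.302 TPM). The shift in CAD soma was thus not seen in N2A, and no direction is read from the N2A shares. Both Net1 transcripts were neurite-enriched in CAD, with TPM ratios of 2.62 and 2.91 on the log2 scale.

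In CAD knockout cells the LR of 0 of 7 members changed in the edgeR test at FDR 0.01, where 0.432% of 17343 genes passed. DESeq2 called 1, Trak2, beside 223 of the 17343 genes. At an unadjusted p under 0.05 the count was 6 of 7, against 10.5% of all tested genes, and the same 6 values were below 0, against 50.9% of genes. The median LR change of the 7 was -0.41, beside -0.01 over all tested genes. LR was lower in every knockout than in any wild-type replicate for Trak2, Net1, Rab13 and Cyb5r3, as it was for 9.2% of genes.

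Trak2 had the largest of these values. Its LR was 4.67, 4.98 and 4.53 in wild-type and 3.98, 4.38 and 4.06 in knockout replicates, without overlap. The fitted change was -0.59 ± 0.16 (SE, 95% interval -0.93 to -0.25), with an edgeR adjusted p of 0.118 and a DESeq2 adjusted p of 0.00363. Rab13 changed by -0.49 ± 0.16 and Net1 by -0.47 ± 0.18 (edgeR adjusted p = 0.251 and 0.339). Cyb5r3, Kif1c and Dynll2 had values of -0.41, -0.40 and -0.36 (edgeR adjusted p = 0.284, 0.384 and 0.200). Ddr2 alone was above 0, at 0.25 ± 0.14 (edgeR adjusted p = 0.569). All 7 stayed neurite-enriched in knockout cells at FDR 0.01, from 1.08 for Kif1c to 4.15 for Trak2 in the fit, beside 24.6% of genes in that direction.

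The level of the members in each fraction was tested next. These levels are CPM, relative to the bulk of genes in each library, so they give no amount of RNA per neurite. In CAD neurites 3 of 7 members fell and 0 rose, beside 25.3% of all tested genes that changed and 13.5% that fell. Trak2 fell in neurites from 1330, 1626 and 1210 CPM to 585, 801 and 676 CPM. These groups did not overlap, and the change was -1.02 ± 0.11 (SE, edgeR adjusted p = 2.98e-06), or 0.495 of the wild-type level. Cyb5r3 fell from 2491, 2793 and 2143 CPM to 1458, 1830 and 1628 CPM, also without overlap (-0.60 ± 0.10, edgeR adjusted p = 0.000251). Rab13 fell from 129, 150.2 and 110.2 CPM to 87.3, 105 and 89.1 CPM, every knockout value being below every wild-type value, as for 23.9% of genes (-0.47 ± 0.10, edgeR adjusted p = 0.00139). Net1 and Dynll2 had neurite changes of -0.06 ± 0.11 and -0.02 ± 0.08 and were not called.

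In CAD soma 3 of 7 members passed, beside 22.8% of all genes. Trak2 fell there too, from 52.1, 51.5 and 52.3 CPM to 37.2, 38.4 and 40.5 CPM, a change of -0.43 ± 0.11 (SE, edgeR adjusted p = 0.00873). Ddr2 fell from 174, 180.0 and 185 CPM to 139.6, 139.9 and 139.1 CPM (-0.37 ± 0.10, edgeR adjusted p = 0.00797). Dynll2 rose from 90.5, 87.1 and 98.0 CPM to 112, 114 and 123 CPM (0.34 ± 0.08, edgeR adjusted p = 0.00338). None of these groups overlapped, beside 22.4% of genes whose knockout values in soma were all lower and 21.5% all higher. With any 1 replicate number left out, the count of called members in CAD soma went from 3 to 0 or 1, being 1 (Ddr2) without replicate 1 and 0 without replicate 2 or 3. Trak2 thus fell in both fractions of CAD, by more in neurites than in soma, though this difference, which is the LR change, was not called by edgeR.

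**Figure D4:**
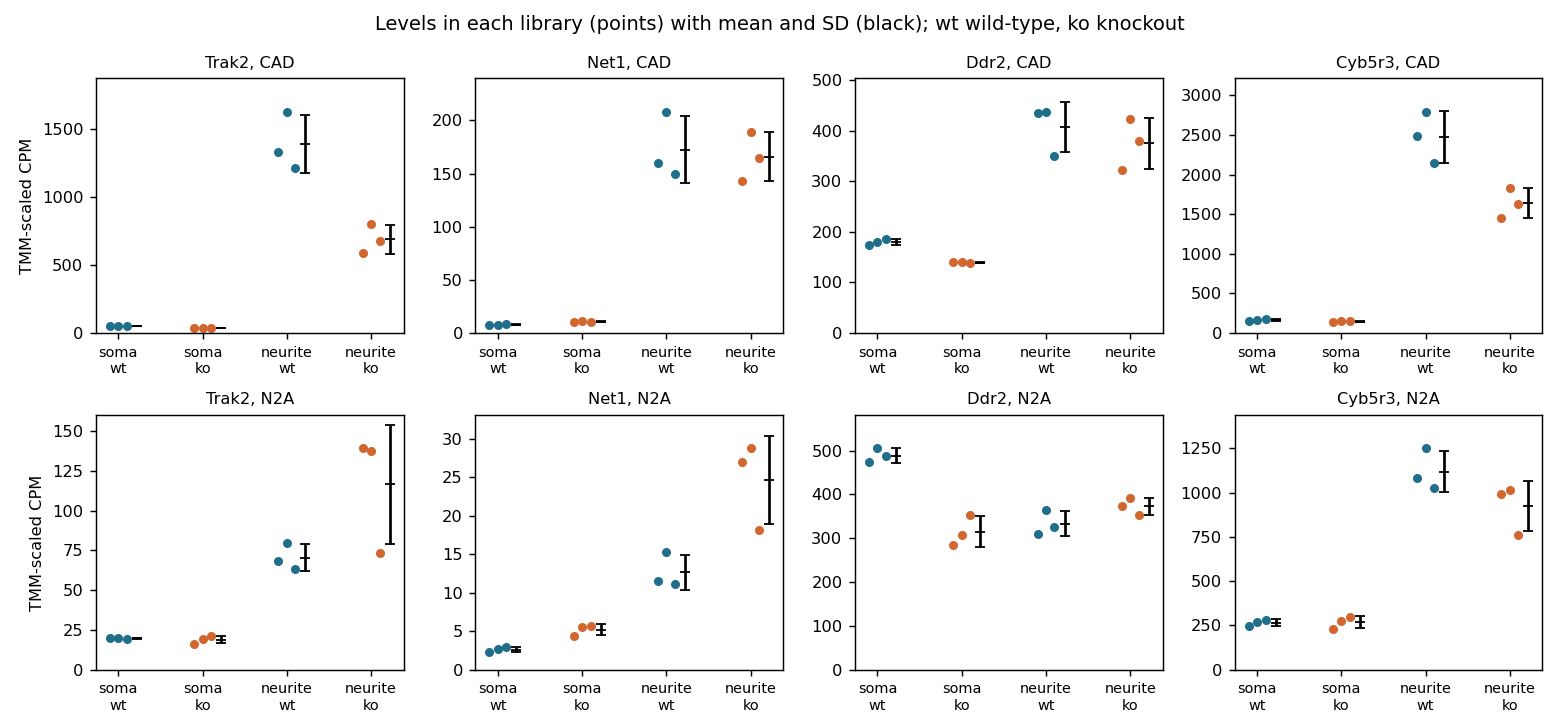
TMM-scaled CPM of Trak2, Net1, Ddr2 and Cyb5r3 in each library of CAD (top) and N2A (bottom), with mean and SD in black, by fraction and genotype. In CAD neurites every knockout value of Trak2 (585 to 801 CPM) lay below every wild-type value (1210 to 1626 CPM), while in N2A neurites 2 of 3 knockout values lay above.

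In N2A the LR of 0 of 7 members changed by edgeR at FDR 0.01, beside 0.1% of 17912 genes. DESeq2 called 1, Ddr2, beside 1909 of the 17912 genes. At an unadjusted p under 0.05 there were 2 of 7, against 31.2% of genes. Ddr2 had wild-type LR values of -0.608, -0.471 and -0.585 and knockout values of 0.389, 0.356 and -0.006. The groups did not overlap, as with 14.8% of genes whose knockout replicates were all above. The change was 0.79 ± 0.13 (SE, 95% interval 0.52 to 1.07, edgeR adjusted p = 0.0171), past an FDR of 0.05 but not of 0.01, and DESeq2 gave an adjusted p of 1.86e-06. With the replicate number as a block, edgeR called this change too (adjusted p = 0.00479). Trak2 went from 1.77, 1.99 and 1.70 to 3.08, 2.84 and 1.79, where the knockout replicate of 1.79 lay inside the wild-type range (0.80 ± 0.26, edgeR adjusted p = 0.0644). The other 5 lay between -0.31 and 0.15.

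Levels in N2A soma changed for 3 of 7 members, beside 16.1% of all genes. Net1 rose from 2.29, 2.65 and 2.91 CPM to 4.38, 5.50 and 5.71 CPM (0.99 ± 0.20 SE, edgeR adjusted p = 0.00209), and Dynll2 rose by 0.54 ± 0.11 (edgeR adjusted p = 0.00271). Ddr2 fell from 473, 505 and 488 CPM to 284, 306 and 354 CPM (-0.63 ± 0.09, edgeR adjusted p = 0.000154). In these 3 cases no knockout value overlapped the wild-type range, beside 18.8% of genes all lower and 23.3% all higher, and without replicate 2 the count of called members in N2A soma was 0. In neurites 2 of 7 rose, beside 11.6% of all tested genes that changed and 6.48% that rose. Net1 rose from 11.5, 15.3 and 11.2 CPM to 27.0, 28.8 and 18.1 CPM, without overlap as for 17.4% of genes (0.96 ± 0.17, edgeR adjusted p = 0.000744). Trak2 rose from 68.1, 79.6 and 63.1 CPM to 139, 137 and 73.2 CPM (0.73 ± 0.18, edgeR adjusted p = 0.00942), although the lowest knockout value lay within the wild-type range. DESeq2 did not call this Trak2 change (adjusted p = 0.0119), and leaving out replicate 1 or 2 ended both neurite calls.

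Ddr2 fell in soma in both CAD and N2A, and its neurite level was not called in either (-0.12 ± 0.10 and 0.16 ± 0.09 SE). The difference of its LR change, CAD minus N2A, was -0.52 ± 0.20 (95% interval -0.94 to -0.11, edgeR adjusted p = 0.167). Net1 soma values were higher in knockout cells of both lines, 0.41 ± 0.14 in CAD and 0.99 ± 0.20 in N2A. The CAD value was not called by edgeR (adjusted p = 0.0311). It was called by DESeq2 (adjusted p = 0.00556) and by edgeR with the replicate number as a block (adjusted p = 0.00625). DESeq2 called 4 of 7 members in CAD soma, beside 4483 of 17343 genes. Trak2 differed most between the lines, falling in CAD neurites and rising in N2A neurites. The difference of its LR change, CAD minus N2A, was -1.36 ± 0.34 (SE, 95% interval -2.06 to -0.67), with an edgeR adjusted p of 0.0574. None of the 7 differed between lines at FDR 0.01, beside 0.203% of 19700 genes, and 2 of 7 (Trak2 and Ddr2) had an unadjusted p under 0.05, beside 18.5% of genes. For the other members the interval of the difference was widest for Rab13, at -1.43 to 0.21, and narrowest for Kif1c, at -0.61 to 0.25.

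Some library properties moved with the genotype. The median neurite/soma TPM ratio over all tested genes was -1.77 in wild-type and -1.35 in knockout CAD cells, and -1.66 and -1.25 in N2A, on the log2 scale. As plain TPM ratios the 6 CAD LR changes below 0 were all nearer 0, at -0.27 for Net1, -0.15 for Trak2, -0.08 for Rab13 and -0.0041 for Cyb5r3, and turned above 0 for Kif1c (0.01) and Dynll2 (0.03), while Ddr2 had 0.64. With the median gene subtracted the same 6 lay between -0.69 and -0.39 and Ddr2 had 0.22. In N2A plain TPM ratios turned the LR changes of Net1, Kif1c and Cyb5r3 above 0, at 0.48, 0.13 and 0.04. Malat1 and Neat1 together summed to 25.2 to 39.2 TPM in wild-type and 36.4 to 48.4 TPM in knockout CAD neurites, and to 31.9 to 47.1 and 51.9 to 69.7 TPM in N2A neurites. The catecholaminergic markers summed to 36.8 to 55.4 TPM in knockout CAD soma, above the wild-type range given earlier, and to 2.23 to 3.38 TPM in knockout N2A soma. The part of these properties in the members' values was not tested.

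The Q331K transgene was compared with the wild-type transgene in the same way. By edgeR, 0 of 7 members changed in LR, in soma or in neurites at FDR 0.01, and no tested gene (0% of 13940) was called in any of these comparisons. At an unadjusted p under 0.05 the counts were 0 of 7 for LR, 0 of 7 for soma and 2 of 7 for neurites, beside 4.34%, 7.14% and 9.84% of all genes. LR changes lay between -0.09 for Kif1c and 0.29 for Cyb5r3, and the 95% intervals of all 7 lay within -0.61 and 0.66. Tardbp itself did not differ by more than 0.08 in either fraction.

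Cyb5r3 was the member with the clearest value there. Its neurite level was 971, 1489 and 1113 CPM with the wild-type transgene and 1708, 1624 and 1698 CPM with Q331K, without overlap, as with 6.99% of genes. The change was 0.49 ± 0.12 (SE), with an unadjusted p of 0.000538 and an edgeR adjusted p of 0.193, while DESeq2, which called 14 genes, gave an adjusted p of 0.00729. Ddr2 neurite values differed by 0.32 ± 0.13 (edgeR adjusted p = 0.426). These libraries held fewer counts than those of CAD and N2A. The SE of the members' LR change ran from 0.16 to 0.25 with Q331K, from 0.11 to 0.18 in CAD and from 0.13 to 0.34 in N2A. The part of the lower counts in these results was not tested.

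**Figure D5:**
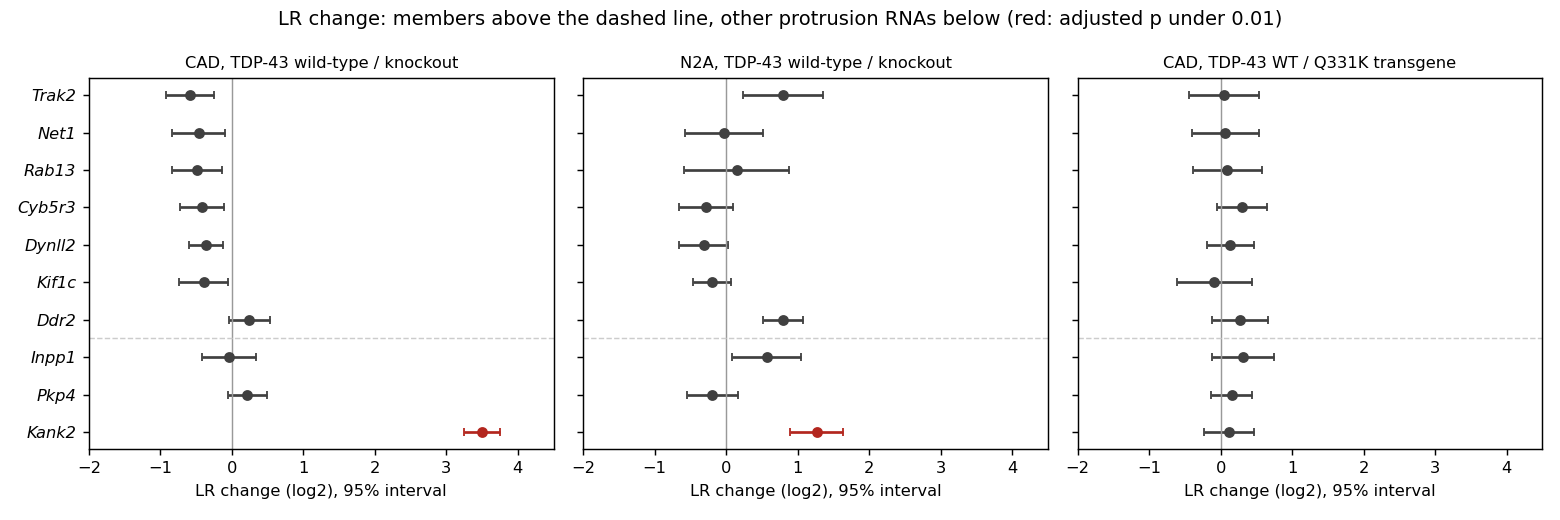
LR change (log2, altered minus control) with 95% intervals for the 7 members (above the dashed line) and 3 other protrusion RNAs (below), red where edgeR's adjusted p was under 0.01. The 7 members lay between -0.59 and 0.80, whereas Kank2 stood at 3.50 in CAD and 1.26 in N2A.

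Further RNAs known from protrusions were Pkp4, an armadillo protein of cell junctions, Inpp1, an inositol phosphate phosphatase, and Kank2, an adaptor of focal adhesions. Inpp1 resembled the most enriched members in CAD, with wild-type LR values of 4.08, 4.28 and 3.82 and an LR change of -0.05 ± 0.18 (SE, edgeR adjusted p = 0.958). Pkp4 had a lower wild-type LR (1.38, 1.41 and 1.11) and a change of 0.22 ± 0.13 (edgeR adjusted p = 0.603). In N2A the LR changes of Inpp1 and Pkp4 were 0.56 and -0.19 (edgeR adjusted p = 0.108 and 0.449). Neurite level rose for Pkp4 in CAD (0.36 ± 0.09, edgeR adjusted p = 0.00491) and for Inpp1 in N2A (0.64 ± 0.16, edgeR adjusted p = 0.00891). It was not called for Inpp1 in CAD (0.39) or Pkp4 in N2A (0.03). The LR change of Kank2 was larger than that of any of the 7 members in CAD and in N2A. In N2A its 95% interval (0.89 to 1.64) overlapped those of Trak2 (0.23 to 1.36) and Ddr2 (0.52 to 1.07). With Q331K its LR change was 0.12, within the range of the members. Kank2 was not tested against the members. Its LR was 0.490, 0.499 and 0.322 in wild-type and 3.76, 4.04 and 3.97 in knockout CAD replicates, a rise of 3.50 ± 0.12 (edgeR adjusted p = 2.04e-11), and it rose in N2A by 1.26 ± 0.18 (edgeR adjusted p = 0.00487). The Kank2 rise came with a neurite level that went up 14.5 times in CAD and a soma level that went up 1.29 times. In knockout CAD cells its fitted LR of 3.93 thus stood between those of Cyb5r3 (3.50) and Net1 (3.96). The TDP-43 motif density of its longest 3′ UTR was 3.69 per kb, below the 4.56 of the median gene and below that of 6 members. Diras1, a small GTPase gene used as the reference for a large change, rose in LR by 5.95 ± 0.15 (SE) in CAD and by 3.30 ± 0.26 in N2A. The TDP-43 motif density of its longest 3′ UTR was 25.1 per kb, reached by 1.86% of 3′ UTRs. Inpp1 and Pkp4 had 13.2 and 5.59 per kb. Whether motif density goes with LR change was not tested.

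Of 16 genes for the transport machinery (APC, its microtubule partners, kinesins and related factors), 0 changed in LR by edgeR at FDR 0.01 in CAD, N2A or the transgene experiment, with 5, 11 and 0 at an unadjusted p under 0.05, beside 10.5%, 31.2% and 4.34% of all genes. In CAD soma 4 rose and 0 fell, and in CAD neurites 4 rose and 3 fell, beside 22.8% and 25.3% of genes that changed. In N2A soma 3 rose and 0 fell, and in N2A neurites 5 rose and 1 fell, beside 16.1% and 11.6%. Among the 12 paralogues, Rab8b was the single gene whose LR changed, from near 0 in CAD wild-type cells (fitted change 0.92 ± 0.13 SE, edgeR adjusted p = 0.00139). Its relative Rab13 had -0.49 in the same test.

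Across the 36 mouse libraries, with each experiment centred on its own mean, the members followed each other closely. The 21 pairs had Pearson correlations of log2 CPM from 0.80 to 0.99, with a median of 0.96, over libraries that share the contrast of neurite and soma. Other neurite-enriched genes share this contrast too, and no background of such genes was taken. Among 9168 genes of at least 10 CPM, the most similar to Trak2 were Map2k7 and Cdc42bpg (0.996 each), to Net1 Nol3 (0.995) and Sh3pxd2a (0.989), and to Rab13 Cplx2 and Trp53inp2 (0.993 each). Cyb5r3 was closest to Cdr2 and Trp53inp2, Dynll2 to Nol3 and Net1, Kif1c to Cdc42bpg and Dync1li2, and Ddr2 to Diaph1 and Synm. By Spearman correlation, 2 of these 14 names were the same.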

How the data were processed

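RNA-seq of soma and neurite fractions was analysed in 36 libraries of mouse CAD and N2A cells. The authors trimmed reads with cutadapt and quantified transcripts with Salmon, per the labels (versions not given in the sources used here). The deposited tables hold estimated counts and TPM per transcript. Both were summed to genes with GENCODE annotation of mm10, and estimated counts were rounded. Each experiment was fitted alone with edgeR 4.0.16 (R 4.3.3): filterByExpr, TMM scaling, the quasi-likelihood test, Benjamini-Hochberg adjustment over all tested genes and an FDR of 0.01. LR was the log2 of neurite over soma, and LR change its interaction with genotype. LR per numbered replicate, from log2 CPM with a prior count of 0.5, assumed that equal numbers belong together, which the labels do not state. This matching does not alter the mean LR, but the SDs of LR and the overlap of LR values between groups depend on it. Deviations of same-numbered samples from their group means correlated by over 0.1 in every pair between genotypes in CAD soma, N2A soma and N2A neurites, so a fit with the replicate number as a block is given where it changed a call. DESeq2 1.42.0 and other settings were alternatives, and the edgeR fit was tested on simulated data. Named genes were every member, every other protrusion RNA, paralogues, machinery genes with a changed LR, the 2 genes most similar to each member, Tardbp and Diras1. The members and lists were chosen with earlier results of these data known. Transcript sequences came from the reference annotation, and 3′ UTRs under 50 bases were left out. Human and reporter data of the series were not used here.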

Additional observations from a re-analysis of the deposited data

Results flagged for a closer look

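The LR change of Kank2, an adaptor of focal adhesions known from protrusions but not among the 7 RNAs, differed between the lines. It was 3.50 in CAD and 1.26 in N2A, a difference of 2.26 ± 0.23 (SE, 95% interval 1.78 to 2.73, edgeR adjusted p = 6.18e-06) in a fit of both lines together. The separate LR change passed in each line, and LR was higher in every knockout than in any wild-type replicate of the line. None of the 7 members met the same test of a difference between lines.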

How the results depend on the processing

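The count of 7 members with control LR different from 0 held in every experiment under all alternatives run. Plain TPM ratios turned control LR negative for Kif1c (-0.37) and Ddr2 (-0.69) in CAD, Kif1c (-0.92) and Trak2 (-0.20) in N2A and Ddr2 (-0.034) with the wild-type transgene. Subtracting the median gene, an alternative chosen after seeing the data, returned all of these above 0. Members with a changed LR in CAD numbered 1 by DESeq2 and 1 without a filter on low counts, against 0. In N2A they numbered 1 at an FDR of 0.05, by DESeq2, with upper-quartile scaling and with at least 10 counts in every library, and 2 without a filter. Genes with a changed LR numbered 75 in CAD and 18 in N2A by edgeR, and 223 and 1909 by DESeq2. In N2A neurites 1 member was called by DESeq2 and 1 with length-scaled counts, against 2, and with Q331K 1 by DESeq2 and 1 without a filter, against 0. Over all genes DESeq2 called 2798 in N2A neurites and 14 in neurites with Q331K. Leaving out 1 replicate number gave 0 to 1 called members in CAD soma, 0 to 3 in N2A soma and 0 to 2 in N2A neurites. By Spearman correlation 2 of 14 similar genes were shared. The cause of these shifts was not tested.

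Upper-quartile scaling moved the median gene by 0.12 in N2A LR change, -0.10 in N2A soma and -0.30 in N2A control LR. Values near 0 changed sign. Net1 LR change in N2A became 0.093 with upper-quartile scaling, 0.051 with at least 10 counts and 0.079 with length-scaled counts. In N2A soma, upper-quartile scaling gave -0.039 for Kif1c and -0.096 for Cyb5r3, which had -0.045 with at least 10 counts. Rab13 in CAD soma had -0.0055 without a filter, and Trak2 LR change with Q331K had -0.085 with length-scaled counts. With 1 replicate number left out, CAD soma changes ran from -0.074 to 0.13 for Rab13 and from -0.026 to 0.19 for Kif1c, and CAD neurite changes from -0.23 to 0.033 for Ddr2 and from -0.080 to 0.040 for Dynll2. In N2A they ran from -0.18 to 0.019 for Net1 LR and from -0.105 to 0.028 for Trak2 soma. With Q331K, LR changes ran from -0.25 to 0.45 for Rab13, -0.074 to 0.33 for Net1, -0.37 to 0.20 for Kif1c and -0.17 to 0.45 for Trak2. Soma changes there ran from -0.19 to 0.19 for Rab13, -0.017 to 0.11 for Trak2 and -0.030 to 0.15 for Ddr2. Neurite changes there ran from -0.097 to 0.32 for Rab13, -0.15 to 0.12 for Net1, -0.27 to 0.20 for Kif1c, -0.059 to 0.43 for Trak2 and -0.17 to 0.11 for Dynll2.

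Samples of equal number correlated in their deviations from group means by -0.07 to 0.54 in CAD, 0.01 to 0.45 in N2A and -0.05 to 0.21 in the transgene experiment. The main fit did not take the numbers as pairs. Between genotypes within a fraction, every correlation was over 0.1 in CAD soma (0.24 to 0.54), N2A soma (0.18 to 0.45) and N2A neurites (0.12 to 0.29). No fit paired the numbers within a single fraction. The block fit used all 12 libraries of an experiment, with an effect of each replicate number shared by soma and neurite. With the replicate number as a block, 1 member had a changed LR in N2A (Ddr2, edgeR adjusted p = 0.00479) and the genes called there went from 18 to 42, and Net1 passed in CAD soma (edgeR adjusted p = 0.00625). The block changed no other member's call. Fewer counts in the transgene experiment and low counts of Net1 and Rab13 in N2A soma (52 to 189 per library) may limit what could be detected. This was not tested.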
